A study of Brassica oleracea with 107 samples.

Results

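The 150 genes described here had the largest early excess of endosperm with seed coat over embryo in Brassica oleracea, among genes that met 3 conditions. They were chosen among the 9726 gene identifiers listed in both deposited tables, of 19732 in either. Genes were ranked by the smallest excess of endosperm over embryo, on the log2(TPM + 1) scale, in the 5 pairs of columns that share day, temperature and library kit (days 0, 1 and 3 at 16 °C, days 1 and 3 at 26 °C). TPM is a transcript abundance, corrected for gene length, in which a library totals 1000000. A gene was kept when its log2 value changed by no more than 2 in embryo from day 0 to day 22 at 16 °C and in endosperm from day 7 to day 22 at 16 °C. Its endosperm value at 26 °C also had to be less than 1 log2 unit above that at 16 °C on days 1 and 3. These 3 conditions left 5924 genes, of which the first 150 were taken.

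The study sequenced RNA of 107 libraries that fall into 36 groups. Per the labels' protocols, plants grew at 21 °C before bolting, then at 16 °C up to the bent-cotyledon stage of the embryo, and after that stayed at 16 °C or were placed at 26 °C. A recovery group was moved from 26 °C back to 16 °C. The seeds were dissected under a microscope, with the seed coat left in the endosperm fraction. Recovery groups were sampled in both tissues on days 18 and 22. Groups at 26 °C were sampled on days 1, 3, 7, 15, 18 and 22, and groups at 16 °C on the same days and on day 0. Endosperm alone was also sampled at hours 1, 24 and 72, at 26 °C and at 16 °C. What event hours and days are counted from is not given, nor the day on which recovery seeds were moved. A group was made of 3 libraries, but endosperm of day 18 at 16 °C of 2. The files give 1 value per group, so no value has an SD and no difference has a replicate check or a p-value. A gene is called higher or lower when log2(TPM + 1) differs by 1 or more between 2 columns, a change of 2-fold. Counts of called genes are given with the percentage of all tested genes that is called.

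In a seed of this family the endosperm arises from the second fertilisation event and nourishes the embryo, which consumes most of it as the seed fills. The seed coat grows from the integuments of the ovule and is maternal tissue. It makes pigments, mucilage and wall material, and its cells die as the seed matures. A gene that is far more abundant in the dissected endosperm fraction than in the embryo can therefore belong to either tissue, and the files do not separate them.

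None of the 150 identifiers matched any of the 53125 genes of the RefSeq gene table used here (0 matches also among all 19732), and the files give no names for them. Markers of endosperm, seed coat and embryo could therefore not be looked up, and the label of the 150 genes rests on dissection alone. Roles of single genes are not given for the same reason, and genes are named by identifier.

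Per the labels' protocols, the Ovation RNA-seq system was used for endosperm from day 7 to day 22, and a standard Illumina protocol for all other libraries. A comparison of tissues from day 7 on is therefore also one of kits, and tissue and kit cannot be told apart. Over all genes, the endosperm column labelled recovery lay further from 16 °C on day 18 than the column labelled 26 °C did, with 6555 against 3448 genes called. Day 18 values in endosperm are therefore given by the label of the column, beside those of day 22. The listed genes held 47.0% to 76.7% of 1000000 TPM in a column, and the sequencing depth behind a value is unknown.

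The values that chose the genes are these. The smallest log2 excess of endosperm over embryo was 6.45 for the first gene, 4.96 for the median gene and 4.31 for gene 150, which is 19.9-fold on this scale. For 123 of the 150 genes the smallest of the 5 differences was that of day 1 at 26 °C. Gene 149 was Bo3g077410 at 4.34 and gene 150 was Bo2g080430 at 4.31, while the first genes left out were Bo9g159830 at 4.31 and Bo9g021930 at 4.25. The next 150 genes in rank, used below as neighbours on the same scale, ran from 4.31 down to 3.26. There is thus no gap in the ranking at gene 150.

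On day 0 at 16 °C the 150 genes had a median of 147 TPM in endosperm, with quartiles of 73.9 and 316 TPM and a range of 24.3 to 7492 TPM. Their median in embryo was 1.55 TPM, with quartiles of 0.76 and 3.94 TPM. Together they held 5.29% of all endosperm transcripts on that day and 0.0625% of all embryo transcripts. Levels within the set were uneven, and 4 genes stood far above the rest. Bo5g137840 was the most abundant, at 9371 and 10261 TPM at 26 °C on days 1 and 3 and at 7492, 8886 and 8825 TPM at 16 °C on days 0, 1 and 3. It held 15.4% of the summed TPM of the 150 genes in these columns. Bo2g011110 held 10.1%, Bo5g132410 6.27% and Bo5g150090 4.85%. None of the 150 genes was listed at 0 in any embryo column at 16 °C, but 39 were under 1 TPM in all 7 of them.

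**Figure D1:**
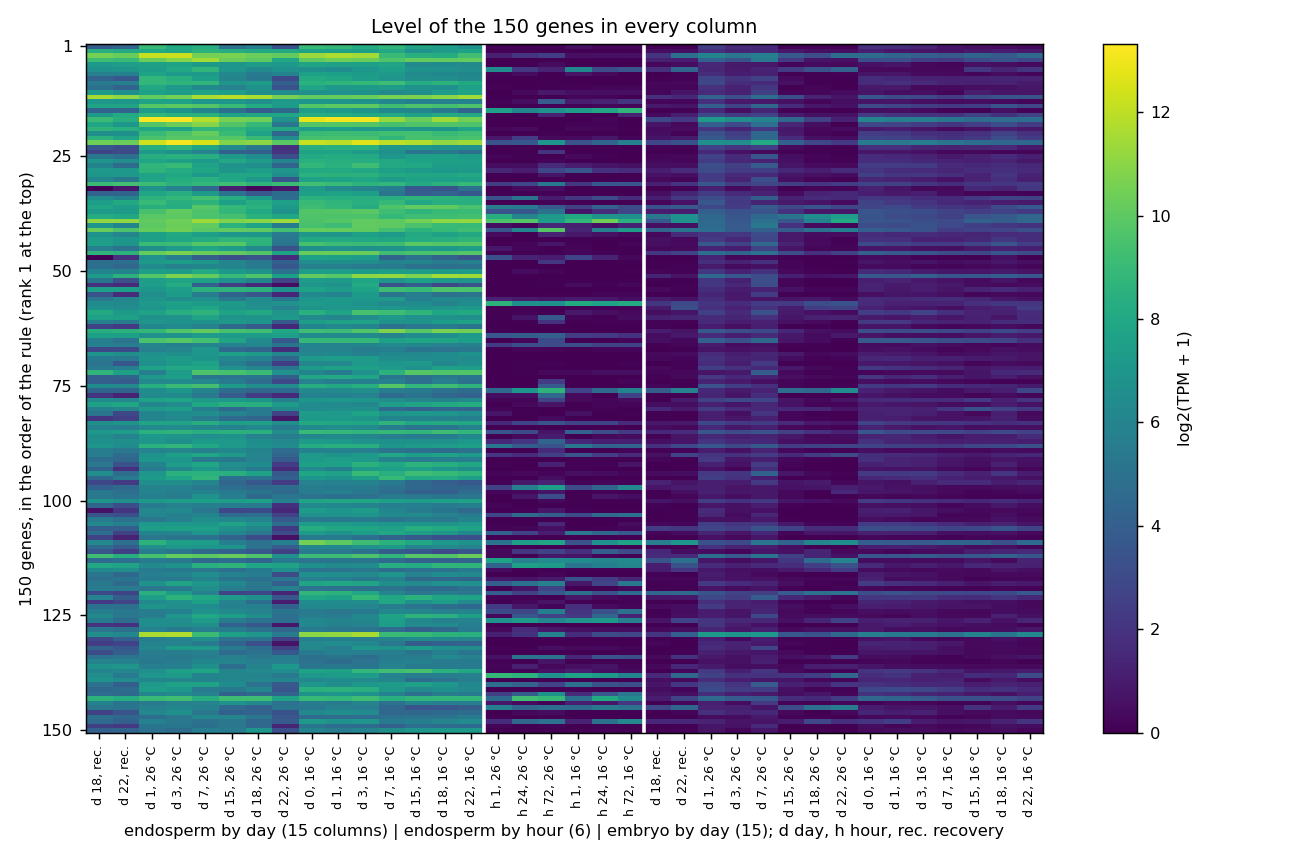
Level of each of the 150 genes (rows, in rank order) in all 36 columns, as log2(TPM + 1). The endosperm day columns on the left are bright throughout, with medians of 29.7 to 156 TPM, while the 6 hour columns in the middle and the 15 embryo columns on the right are dark for most genes.

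The 6 genes first in rank show different courses behind a similar tissue excess. Bo3g042760 had rank 1, at 488 TPM in endosperm and 2.47 TPM in embryo on day 0. Its endosperm level on day 22 was 19.5 TPM in recovery seeds and 9.39 TPM at 26 °C, against 104 TPM at 16 °C, so it was low in both groups that had been warm. Bo8g059830 had rank 2, at 212 TPM in endosperm and 1.17 TPM in embryo on day 0. On day 22 it was at 282 TPM in recovery seeds, with 274 TPM at 26 °C, against 202 TPM at 16 °C, with all 3 columns within 2-fold of each other. Bo5g132410 had rank 3, with 2563 TPM in endosperm and 25.2 TPM in embryo on day 0. It was higher in the warm columns later, at 1626 TPM at 26 °C against 353 TPM at 16 °C on day 15. Bo3g057290 had rank 4, at 1090 TPM in endosperm and 8.13 TPM in embryo on day 0. On day 7 it was at 2813 TPM at 26 °C, against 803 TPM at 16 °C in endosperm, and on day 22 the order was the reverse, at 257 and 1142 TPM. Bo1g129910 had rank 5, at 219 TPM in endosperm and 0.60 TPM in embryo on day 0, and kept 148 TPM at 26 °C on day 22 against 77.1 TPM at 16 °C. Bo9g036870 had rank 6, at 100.3 TPM in endosperm and 0.25 TPM in embryo on day 0, and differed from the other 5 in the hour series, where it was at 87.2 TPM at 26 °C, against 72.2 TPM at 16 °C at hour 1.

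The first comparison asked whether the tissue excess was present in the 10 pairs of columns that the ranking did not use. The conditions of the rule did use the 16 °C columns of endosperm on days 7 and 22 and of embryo on day 22, so these pairs are in part fixed by the choice of genes. At 16 °C on day 7 all 150 genes were at least 2-fold higher in endosperm than in embryo, where 30.5% of 9646 tested genes were. The number was 149 for day 15 (27.6% of tested genes), 150 for day 18 (28.9%) and 150 for day 22 (29.6%). The median log2 excess at 16 °C was 5.87, 5.66, 5.66 and 5.65 on days 7, 15, 18 and 22, against 0.26, 0.13, 0.15 and 0.18 over all tested genes. The next 150 genes had a median excess of 4.54, 4.24, 4.20 and 4.24. In these bulk samples fewer cells of a type and less RNA per cell cannot be told apart.

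At 26 °C the excess was called for 149 genes on day 7 (33.2% of tested genes), 148 on day 15 (32.6%), 144 on day 18 (32.4%) and 137 on day 22 (30.6%). The median log2 excess was 5.26, 5.86, 5.60 and 3.86 on these days. These medians depend on the pseudocount, since most embryo values are low, and with a pseudocount of 0.1 they were 5.76, 7.35, 7.91 and 6.14. With both pseudocounts the median of day 22 was below those of days 15 and 18. It was also below that of day 22 at 16 °C, which was 5.65 with a pseudocount of 1 and 6.85 with one of 0.1. Against day 7 it was lower with a pseudocount of 1 and higher with one of 0.1, so that order depends on the pseudocount. These differences between medians were not tested. In recovery it was called for 144 genes on day 18 (38.9%) and 144 on day 22 (29.2%), with medians of 5.21 and 4.46. In all 10 pairs, 134 of the 150 genes (89.3%) were called higher in endosperm, where 12.8% of tested genes were. On day 22 the median endosperm level was 29.7 TPM at 26 °C, against 99.04 TPM at 16 °C, and the median embryo level was 0.18 TPM at 26 °C, against 0.91 TPM at 16 °C.

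Of the 150 genes, 3 were at least 2-fold lower in endosperm than in embryo in any of the 10 pairs. In a single pair, 12.3% to 18.5% of 9646 tested genes were. The genes were chosen for an endosperm excess on days 0 to 3, so a low count is in part fixed by the choice. Bo01074s050 was so in 5 of them, for example at 1.69 TPM in endosperm and 32.4 TPM in embryo at 26 °C on day 22, against 429 TPM in endosperm and 8.27 TPM in embryo on day 0. Bo3g068510 was at 22.3 TPM in endosperm and 84.5 TPM in embryo at 26 °C on day 22. Bo2g167970 was at 29.3 TPM in endosperm and 126 TPM in embryo in recovery on day 22. All 3 pairs of values are from columns of seeds that had been at 26 °C. At 16 °C none of the 150 genes was lower in endosperm on any day, where 15.9% to 17.9% of tested genes were on days 7 to 22.

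**Figure D2:**
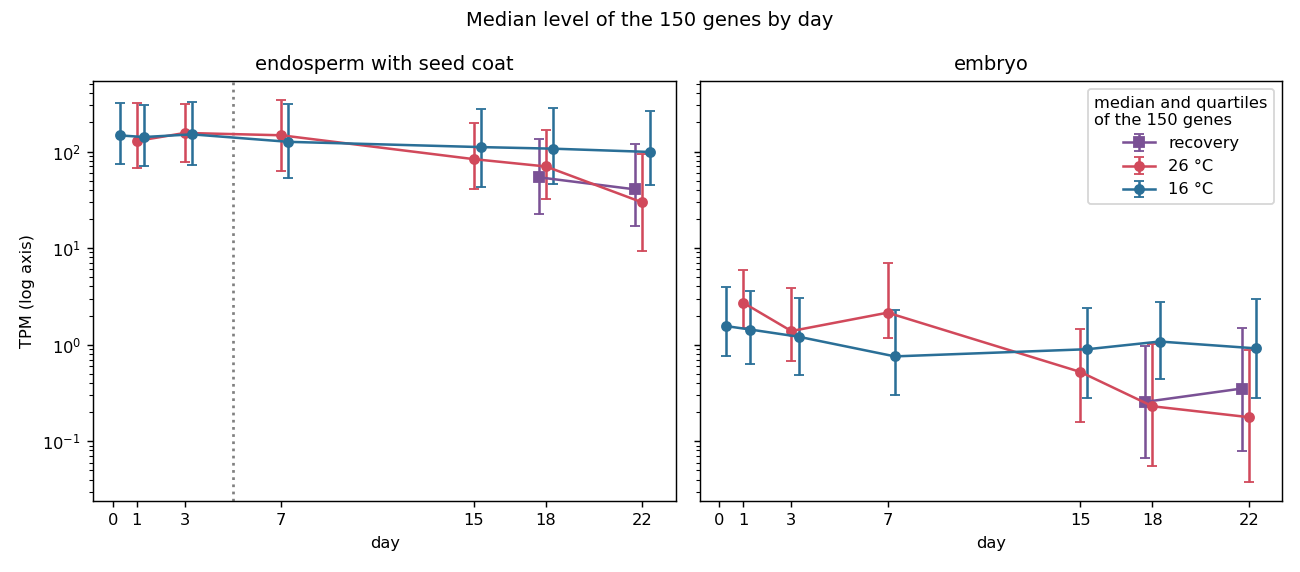
Median TPM of the 150 genes by day in endosperm with seed coat and in embryo (log axis), with bars from the lower to the upper quartile over genes, for recovery, 26 °C and 16 °C (points of one day are set slightly apart). The dotted line marks the change of library kit in endosperm between days 3 and 7. The endosperm medians at 26 °C are 147, 83.4, 70.0 and 29.7 TPM on days 7, 15, 18 and 22, while those at 16 °C stay between 99.04 and 126 TPM.

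At 16 °C the late endosperm levels of the 150 genes differed little between days, which the rule in part required, since it bounded the change from day 7 to day 22. From day 7 to day 15, 3 genes were higher on day 15 and 16 lower, beside 2.46% and 5.64% of 14601 tested genes. From day 15 to day 18 there were 1 higher and 2 lower (1.01% and 1.35%), and from day 18 to day 22 there were 2 higher and 1 lower (4.83% and 2.06%). For 107 of the 150 genes (71.3%) all 4 late 16 °C columns lay within 2-fold of each other, as they did for 72.0% of tested genes. The 150 genes together held 4.23%, 3.89%, 4.10% and 4.11% of all endosperm transcripts on days 7, 15, 18 and 22 at 16 °C.

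At 26 °C more and more of these genes were below their 16 °C level in the later endosperm columns. On day 7, 29 were higher at 26 °C than at 16 °C and 5 lower, beside 11% and 3.74% of tested genes. On day 15, 17 were higher and 38 lower (12% and 8.94%), and on day 18, in the column labelled 26 °C, 9 were higher and 54 lower (11.5% and 12.1%). On day 22, 7 were higher and 105 lower, beside 25.9% and 19.4%. Lower genes were thus 70% of the set on day 22. The median log2 difference was 0.37, -0.10, -0.59 and -2.07 on days 7, 15, 18 and 22, against 0.15, 0.01, -0.10 and 0.11 over all tested genes. On days 1 and 3, where the rule barred genes higher at 26 °C, 6 and 13 genes were lower, beside 2.77% and 3.7% of tested genes. The counts of day 7 depended on the scaling of the columns, with 15 higher and 13 lower after each column was centred on its median. After centring, 1094 of all 14601 tested genes were higher on day 7 and 969 lower. On day 22 neither centring nor removal of the most abundant genes moved the count of lower genes by over 1.5 times. The day 22 and day 7 columns at 16 °C also entered the rule, through their own difference, while the other endosperm columns of days 7 to 22 did not.

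The summed level of the 150 genes in endosperm was 5.67%, 3.68%, 3.01% and 1.53% of all transcripts at 26 °C on days 7, 15, 18 and 22. The level was lower at each step of the 26 °C course, days 7 to 15, 15 to 18 and 18 to 22, for 71 of the 150 genes (47.3%), where 17.4% of 14601 tested genes were ordered in this way. With the day 18 column labelled recovery in place of that labelled 26 °C, an alternative chosen after the data were seen, the number was 88 (58.7%, against 16.7% of tested genes). An exchange of the labels of these columns could not be checked. On the 16 °C course 17 genes (11.3%) were lower at each step, where 19.1% of tested genes were. The rule bounded the change from day 7 to day 22 at 16 °C, so this share is in part fixed by the choice of genes. Of the 38 genes lower at 26 °C on day 15, 37 (97.4%) were also lower on day 22, where 70% of all 150 genes were. These 37 are 35.2% of the 105 genes lower on day 22. Of the 29 genes higher on day 7, 17 (58.6%) were lower on day 22, compared with 88 (72.7%) of the 121 others. No share over all tested genes is given for these overlaps, so they are a description of the set only.

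The largest deficits on day 22 were those of Bo1g154810 and Bo3g009440. Bo1g154810 was at 226, 91.8, 89.5 and 3.94 TPM at 26 °C on days 7, 15, 18 and 22, and at 245, 392, 332 and 258 TPM at 16 °C. Bo3g009440 was at 183, 102, 67.5 and 3.76 TPM at 26 °C on these days and at 197, 313, 268 and 208 TPM at 16 °C. Each was within 2-fold of its 16 °C level on day 7, and each was at its lowest at 26 °C on day 22. Bo1g154810 had also been lower at 26 °C on days 1 and 3, at 61.6 and 161 TPM, against 199.9 and 376 TPM at 16 °C. Bo3g009440 was within 2-fold on these 2 days. Bo5g137840, the most abundant of the set on days 0 to 3, was at 105 TPM at 26 °C, against 1423 TPM at 16 °C on day 22. Deficits were already large on day 15 for Bo8g077260, at 66.5 TPM at 26 °C, against 699.8 TPM at 16 °C, and for Bo4g024410, at 28.1 and 248 TPM.

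A minority went the other way. Bo7g082310 was at 51.5, 22.5, 44.3 and 80.0 TPM at 26 °C on days 7, 15, 18 and 22, and at 24.5, 17.0, 20.8 and 19.6 TPM at 16 °C. Bo6g056440 was at 138 TPM at 26 °C, against 45.7 TPM at 16 °C on day 22, but at 26.7 and 40.4 TPM on day 15. On day 15 the largest excesses were those of Bo5g132410, given above, and of Bo3g101540, at 410.8 TPM at 26 °C, against 129.5 TPM at 16 °C. None of the 150 genes was called higher on all 4 days, where 1.89% of tested genes were, and 16 (10.7%) were called on no day, where 37.8% of tested genes were. On day 22, 58 genes were lower among the 75 with the higher mean level on days 0 to 3, and 47 among the other 75.

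**Figure D3:**
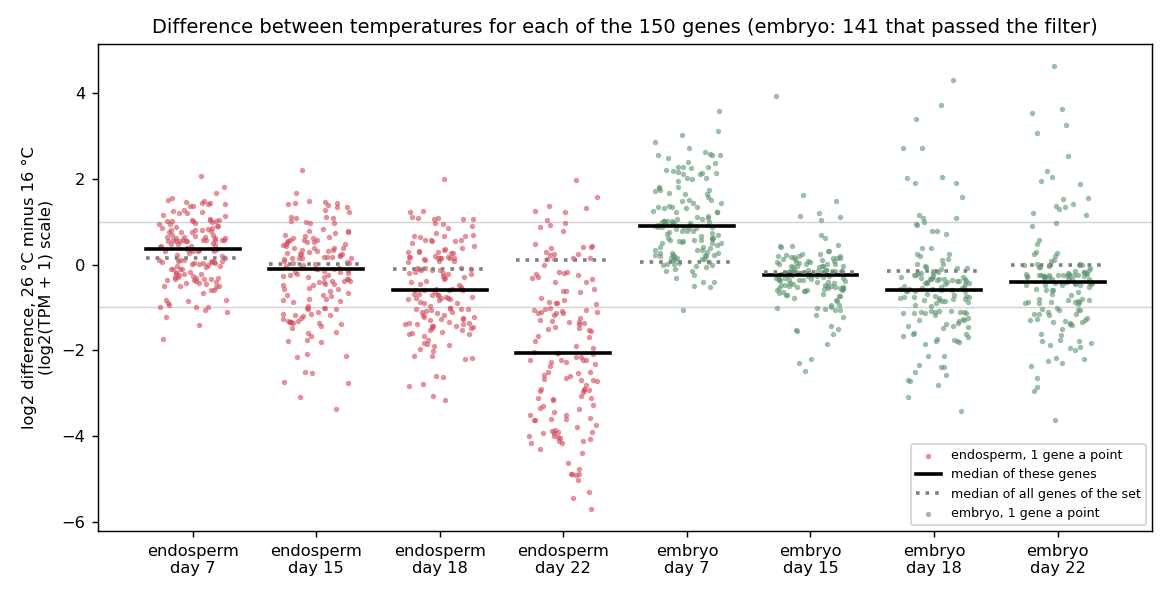
Log2 difference between 26 °C and 16 °C for each of the 150 genes in endosperm (4 days, left) and for the 141 that passed the filter in embryo (right). Each point is a gene, solid lines are medians of these genes, dotted lines are medians of all genes of the set, and grey lines mark 2-fold. The endosperm points move down from a median of 0.37 on day 7 to -2.07 on day 22, while the embryo points are highest on day 7, with a median of 0.90.

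The deficit of the 150 genes was not common to the whole set of genes that met the 3 conditions. On day 22, 20.6% of the 5348 of them that passed the filter were lower at 26 °C and 28.3% higher, with a median log2 difference of 0.17. The next 150 genes in rank, which are also endosperm-preferential, had 90 lower and 11 higher, with a median of -1.33. These are descriptions, and the difference between the lists was not tested.

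Recovery seeds were set beside both temperatures on day 22. Against 26 °C, 36 of the 150 genes were higher in recovery and 0 lower, beside 3.43% and 2.2% of tested genes. Against 16 °C, 6 were higher and 93 lower (21.6% and 17%). The median log2 difference of recovery was 0.49 from 26 °C and -1.36 from 16 °C, and the same recovery column is used in both. Recovery lay between the other columns for 117 of the 150 genes (78%), as for 56.5% of tested genes. All 36 genes higher in recovery than at 26 °C were among the 105 lower at 26 °C than at 16 °C. Both calls use the 26 °C column, and among all tested genes 73.5% of those higher in recovery were also lower at 26 °C than at 16 °C. The summed level was 1.95% of all transcripts in recovery, 1.53% at 26 °C and 4.11% at 16 °C. Bo7g108300 was at 102 TPM in recovery seeds, with 21.3 TPM at 26 °C, against 607 TPM at 16 °C. Bo1g056600 was at 5.36 TPM in recovery seeds, with 0.68 TPM at 26 °C, against 18.2 TPM at 16 °C. Even these, the genes with the largest excess over 26 °C, were below their 16 °C level.

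**Figure D4:**
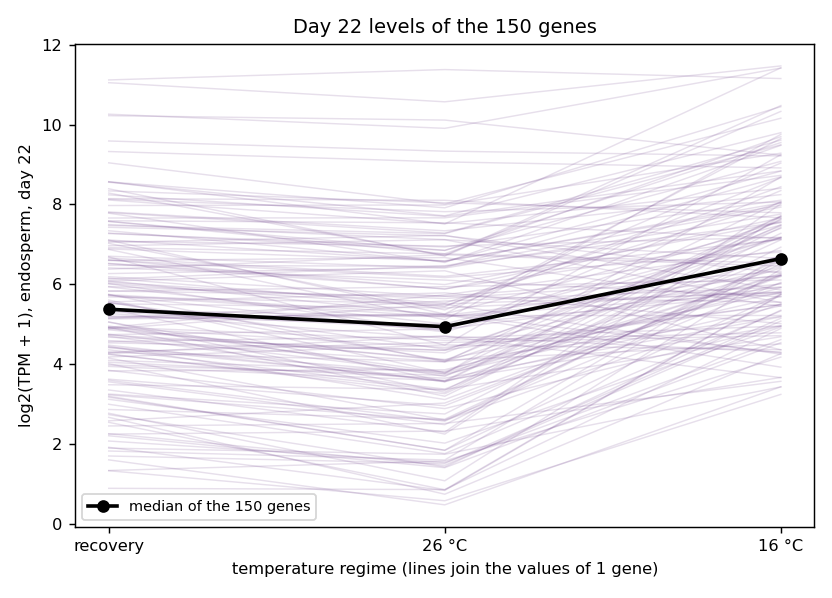
Endosperm level of each of the 150 genes on day 22 in recovery, at 26 °C and at 16 °C, as log2(TPM + 1); each thin line is a gene and the black line joins the medians. The medians are 40.5 TPM in recovery seeds and 29.7 TPM at 26 °C, against 99.04 TPM at 16 °C.

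On day 18 the columns stood in another order. The column labelled recovery had 2 of the 150 genes higher and 38 lower than the column labelled 26 °C, beside 22.2% and 8.7% of tested genes. Against 16 °C it had 11 higher and 77 lower (27.3% and 17.6%). It was below both other columns for 97 of the 150 genes (64.7%) and between them for 27 (18%), where 31.7% and 18.7% of tested genes were. The number lower than in the column labelled 26 °C was 61 after median centring and 66 after rescaling. Over all 14601 tested genes these numbers were 2203 and 2455, against 1271 without either step. Bo3g028600 was at 3.60 TPM in the column labelled recovery, 27.6 TPM in that labelled 26 °C and 172 TPM at 16 °C. Bo6g003560 was at 0.59, 6.91 and 35.01 TPM in these columns. The day 18 values at 16 °C rest on 2 libraries.

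In embryo the 150 genes stayed low, and 141 passed the filter of 1 TPM in some column. At 16 °C the median gene had, in embryo, 1.14% of its endosperm TPM on day 0, and 0.61%, 0.70%, 1.02% and 0.76% on days 7, 15, 18 and 22. At 26 °C the share was 1.99%, 0.92%, 1.80%, 0.43%, 0.21% and 0.46% on days 1, 3, 7, 15, 18 and 22. The values of days 0 to 3 were chosen by the rule. Over the 150 genes, the rank correlation of embryo and endosperm levels at 26 °C was 0.74, 0.63, 0.44 and 0.67 on days 7, 15, 18 and 22. At 16 °C it was 0.69, 0.64, 0.75 and 0.65 on these days. The genes share a library in each column, and the rule ties the 2 levels together on days 0 to 3, so these values are a description.

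The day 1 and day 7 columns at 26 °C stood out in embryo. On day 7, 62 of the 150 genes were higher at 26 °C and 1 lower, beside 8.6% and 2.13% of 11899 tested genes. The median level was 2.14 TPM at 26 °C, against 0.75 TPM at 16 °C, and the summed level was 0.139% of all embryo transcripts at 26 °C and 0.0369% at 16 °C. On day 1, whose columns the rule used, 39 were higher and 1 lower (9.26% and 3.93%), and on day 3 there were 3 and 1 (5.43% and 0.79%). Of the 39 genes higher on day 1, 29 (74.4%) were also higher on day 7, where 41.3% of all 150 genes were. These 29 are 46.8% of the 62. Bo3g023670 was at 14.3 TPM at 26 °C, against 0.28 TPM at 16 °C in embryo on day 7. Bo3g057290, of rank 4, was at 40.5 and 3.81 TPM in embryo on that day. In endosperm 19 of the 62 were also higher at 26 °C on day 7, where 19.3% of all 150 genes were. No share over all tested genes is given for these overlaps. Whether endosperm or seed coat left on the embryo at dissection has a part in these values was not tested.

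**Figure D5:**
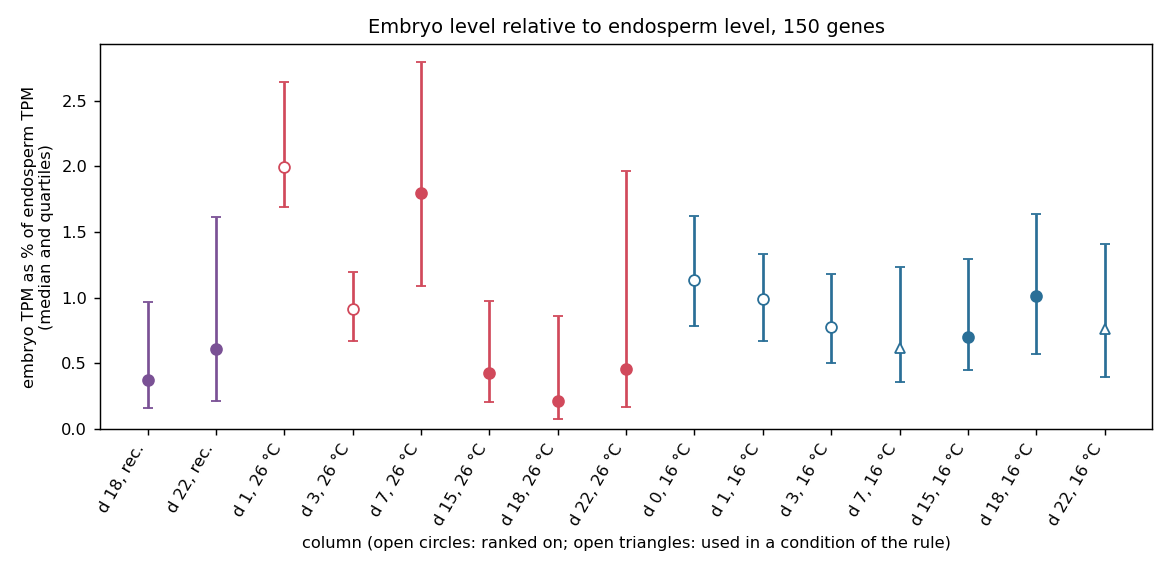
Embryo TPM as a percentage of endosperm TPM for the 150 genes in each of 15 columns, as the median (point) and quartiles (bars) over genes; open circles are columns the ranking used, and open triangles are days with a column used in a condition of the rule. The medians lie between 0.21% and 1.99%, and the 2 highest are day 1 and day 7 at 26 °C.

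On the later days more of the 150 genes were lower than higher at 26 °C in embryo. On day 15, 7 were higher and 16 lower (10.4% and 14.4% of tested genes), the numbers for day 18 were 14 and 46 (14.1% and 18.8%), and those for day 22 were 18 and 40 (26% and 15%). The 16 °C column of day 22 entered the rule, through its difference from day 0. On day 15 both shares of the 150 genes were below those of all tested genes. The embryo medians of these days lay between 0.18 and 1.08 TPM, where this scale compresses differences. With a pseudocount of 0.1 the lower genes numbered 53, 101 and 89 on these days. Over all 11899 tested genes the numbers also rose, to 3297, 3991 and 3195. Among genes higher in embryo on day 22 and at 5 TPM or more, the largest differences were those of Bo9g166090 and Bo1g080130. Bo9g166090 was at 60.1 TPM at 26 °C, against 1.47 TPM at 16 °C, and Bo1g080130 was at 280 and 21.7 TPM. Bo1g080130 was also among the most abundant in endosperm on that day, at 2660 and 2275 TPM. In recovery embryos the day 22 level of Bo9g166090 was 29.2 TPM and that of Bo1g080130 was 107 TPM, between those of the other columns. The median of the 150 genes in embryo on day 22 was 0.35 TPM in recovery and 0.18 TPM at 26 °C, against 0.91 TPM at 16 °C.

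In the hour series, which was also made with the standard kit, most of the 150 genes were close to 0. The median was 0.071, 0.085 and 0.60 TPM at 26 °C at hours 1, 24 and 72, and 0.11, 0.11 and 0.17 TPM at 16 °C. In all 6 hour columns 79 genes were under 1 TPM, of which 12 were listed at 0 throughout, and 71 (47.3%) reached 1 TPM somewhere. Of the 16338 genes listed for endosperm, 13203 reached 1 TPM in some hour column. Together the 150 genes held between 0.21% and 0.39% of all transcripts in an hour column, against 5.29% to 6.86% in the endosperm columns of days 0 to 3. At hour 24 at 16 °C, 2 genes were higher and 141 lower than on day 1 at 16 °C, beside 27.4% and 33.6% of 14937 tested genes. At hour 72, 3 were higher and 140 lower than on day 3 (27.1% and 29.3%). The genes were chosen for high values on days 0 to 3, so they had more room to be lower than higher in this comparison. The difference in scale was large for the most abundant of them, since Bo5g137840 was at 0.15 TPM at hour 24 at 16 °C and was listed at 0 in the other 5 hour columns.

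Of the 71 genes, 17 were at 5 TPM or more in all 6 hour columns. Bo1g080130 reached the highest hour value of all 150 genes, at 769, 866 and 168 TPM at 26 °C at hours 1, 24 and 72 and at 454, 1378 and 362 TPM at 16 °C. Bo9g133110 was at 197, 67.4 and 105 TPM at 26 °C and at 178, 241 and 429 TPM at 16 °C. In the endosperm columns of days 0 to 3, Bo1g080130 was at 786 to 1328 TPM and Bo9g133110 at 113 to 172 TPM. Hour values of both genes lay above and below these ranges. These groupings by hour level were made after values were seen, and differences between them were not tested. On day 22, 11 of the 17 (64.7%) were higher at 26 °C than at 16 °C in embryo, against 4 of the 54 genes that reached 1 TPM in some hour column but not 5 TPM in all, and 3 of the 79 genes under 1 TPM throughout. In endosperm on day 22, 10 of the 17 (58.8%) were lower at 26 °C, against 31 of the 54 (57.4%) and 64 of the 79 (81.0%).

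Temperatures were compared over the 71 genes that passed the filter in the hour series. At hour 1, 11 of them (15.5%) were higher at 26 °C and 7 (9.86%) lower, beside 11.2% and 8.89% of 13203 tested genes. At hour 24 the numbers were 14 (19.7%) and 6 (8.45%), beside 16.8% and 7.12%. At hour 72 they were 32 (45.1%) and 9 (12.7%), beside 22% and 13.1%. Of the 71 genes, 17 passed the filter through hour 72 at 26 °C alone, so that their difference is in part fixed by the filter. Over the 52 genes that reached 1 TPM at hour 1 or 24, a filter chosen after the data were seen, 18 (34.6%) were higher at hour 72 and 9 (17.3%) lower, where 16.6% and 14.7% of 11751 genes were. Bo7g092700 was at 13.3 TPM at 26 °C and listed at 0 at 16 °C at hour 72. It is one of the 17 genes that passed through that column alone, being under 1 TPM in every other hour column. Bo3g068510 was at 126 TPM at 26 °C, against 23.5 TPM at 16 °C, after 24 hours, with 406 and 63.96 TPM as the values of hour 72. Over time at 26 °C, 17 genes were higher and 11 lower at hour 24 than at hour 1 (27.5% and 16%), and 32 were higher and 9 lower at hour 72 than at hour 24 (25.1% and 23.4%), a comparison that the same 17 genes enter. Over time at 16 °C there were 17 higher and 10 lower at hour 24 than at hour 1 (21.8% and 15%), and 14 higher and 8 lower at hour 72 than at hour 24 (13.2% and 7.58%).

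Identifiers of this kind carry a chromosome number, by the usual naming of Brassica oleracea genes. The 150 genes were spread over all 9, with 21 (14%) on chromosome 9, 20 (13.3%) on chromosome 3 and 5 (3.33%) on chromosome 6, where 11.3%, 15.8% and 8.34% of the genes in both tables lie. A further 8 (5.33%) were on unplaced scaffolds, where 2.34% of the genes in both tables lie. In 8 pairs, all on chromosomes, 2 of the genes had numbers no more than 100 apart, against 6 pairs among the next 150 genes. Scaffold genes did not enter this count, though Bo01074s050 and Bo01074s070, both of the set, carry the same scaffold number. The closest pair was Bo2g149620 and Bo2g149630, with numbers that differ by 10. On day 22 the endosperm level of Bo2g149620 was 241 TPM at 26 °C, against 1396 TPM at 16 °C, and that of Bo2g149630 was 114 and 748 TPM. Reads that match both genes could have been split between them if their sequences are alike, which was not tested.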

How the data were processed

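RNA abundance was used in TPM, the unit of the 2 tables the authors deposited, 1 per tissue. The submitters' processing notes name cutadapt 1.9.1, STAR 2.5 and featureCounts, and neither genome build nor strand setting is given in the sources used here. A table has 1 column per group, and the way libraries were combined is not stated. By the tables' names their genes were selected as differentially expressed, by a rule that is not known here, so a listed gene is not independent evidence of a difference.

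TPM keeps no depth, so no counting interval or detection limit is given. The planned limma test would need library values, and no p-value can be given. Differences are of log2(TPM + 1) with 2-fold as the threshold, which understates changes of low genes. A gene was used in a set of columns (embryo, endosperm days 0 to 3, endosperm days 7 to 22, hours, both tissues) when it had 1 TPM or more in at least 1 of them. All 150 genes passed in the endosperm day sets, 141 in embryo and 71 in the hour series.

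Genes named were the first 6 and the 2 on each side of the limit in rank, the 4 most abundant on days 0 to 3, at most 2 per direction and comparison by largest difference at 5 TPM or more, classes of 5 or fewer, and the closest neighbours. The values of Bo1g080130, Bo9g133110 and Bo3g068510 in the hour series and the grouping by hour level were chosen after values were seen. The members and lists were chosen with earlier results of these data known. Alternatives were another pseudocount, other scalings and no filter, and 2 were added after the data were seen. The scripts were tested on simulated data and run in Python 3.11.15 with pandas 2.3.3 and numpy 2.4.6.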

Additional observations from a re-analysis of the deposited data

Results flagged for a closer look

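Both results below are medians over the 150 genes that had opposite signs in 2 columns of the same kind, and the difference between them was not tested. In endosperm the median log2 difference between 26 °C and 16 °C was 0.37 on day 7 and -2.07 on day 22. The median log2 difference between recovery and 26 °C in endosperm was -0.44 on day 18, by the labels of the columns, and 0.49 on day 22.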

How the results depend on the processing

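The alternatives computed for the 34 comparisons were a pseudocount of 0.1, centring each column on its median, rescaling without the 10 most abundant genes, and no filter. No called value changed sign. Of the medians over the 150 genes, 5 changed sign with median centring and 1 with rescaling, and these were at most 0.19 in size on the log2 scale. The counts of lower genes at 26 °C in endosperm on days 15, 18 and 22 and of genes higher in endosperm than in embryo stayed within 1.5 times of the values given. Without the filter every count did. With median centring, day 7 endosperm had 15 genes higher and 13 lower at 26 °C, beside 1094 and 969 of 14601 tested genes. The 16 °C steps became 6 higher and 10 lower (days 7 to 15), 2 and 1 (days 15 to 18) and 1 and 2 (days 18 to 22). For all 14601 tested genes these were 561 and 465, 213 and 115, and 622 and 386. Genes lower at 26 °C became 13 at hour 1 and 12 at hour 24, and 5 were higher at hour 24 than on day 1. Over all tested genes these were 1604 and 1537 of 13203, and 5213 of 14937. The day 18 recovery column had 0 higher and 61 lower than 26 °C, and 7 higher than 16 °C. All tested genes gave 2101, 2203 and 2943 of 14601. With rescaling, day 7 endosperm had 18 higher and 11 lower at 26 °C, day 22 had 4 higher, and 1 gene was lower on day 18 than on day 15. Over all tested genes these were 1374, 859, 3346 and 262 of 14601. Rescaled recovery had 0 higher and 66 lower than 26 °C on day 18 and 3 higher than 16 °C on day 22, and 0 genes were higher at hour 24 than on day 1. All tested genes gave 2608, 2455 and 3095 of 14601, and 3793 of 14937. With a pseudocount of 0.1, genes lower at 26 °C in embryo became 53, 101 and 89 on days 15, 18 and 22, and 15 and 13 at hours 1 and 24 in endosperm. Over all tested genes these were 3297, 3991 and 3195 of 11899, and 1794 and 1441 of 13203. The hour steps became 22 higher and 14 lower from hour 24 to 72 at 16 °C, 28 higher from hour 1 to 24 at 26 °C and 14 lower from hour 24 to 72 at 26 °C, and 2 were lower from day 18 to day 22. All tested genes gave 2967, 1629, 4709 and 3835 of 13203, and 936 of 14601. Centring moved the median of all tested genes by up to 1.15 log2 units between tissues (day 18 recovery) and by no more than 0.45 elsewhere. The cause of these moves was not tested. No paired analysis was possible because the columns hold whole groups and carry no replicate numbers; leaving out a replicate was not possible for the same reason. With a filter on hours 1 and 24, added after the data were seen, 18 genes were higher at 26 °C at hour 72. With a pseudocount of 0.1 the median log2 excess of endosperm over embryo at 26 °C was 5.76, 7.35, 7.91 and 6.14 on days 7, 15, 18 and 22. Depth is unknown, so values near 0 in embryo and in the hour series set no limit on expression.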
